A study of Mus musculus with 6 samples.

Results

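Imprinted genes, which are transcribed mainly from the chromosome inherited from one parent, were examined in mouse pancreatic islets, the small endocrine organs that release insulin and glucagon. The genes were taken by symbol from a list of 10 that are known for roles in islets or growth: Nnat, Peg3, Dlk1, Meg3, Cdkn1c, Igf2, H19, Plagl1, Gnas and Rasgrf1. Of these, 9 were read from a table of 18437 genes, and H19 was not analysed here. All 9 reached 10 in 3 or more libraries, the filter on low values that 16042 genes passed. RNA came from isolated islets of males aged 30 weeks, in 3 Sec16b+/+ (wild type) and 3 Sec16b-/- (knockout) libraries. Sec16b helps to organise the sites where cargo leaves the endoplasmic reticulum (ER). The labels give neither the strain nor how the allele was made, nor whether a library is 1 animal, so the p-values are set by the spread between libraries, which may be technical.

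Imprinting is set by DNA methylation laid down in the egg or the sperm and kept through development. Many imprinted genes act on growth and metabolism, and several are strongly transcribed in endocrine cells. Nnat, Peg3, Dlk1, Igf2, Plagl1 and Rasgrf1 are paternally expressed, and Meg3, H19 and Cdkn1c maternally. Gnas yields several transcripts that differ in their imprint. The values analysed here do not separate the parental alleles.

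The promoters of Nnat, Peg3 and Meg3 are shown because Nnat had the largest difference of the 9 genes and because Peg3 and Meg3, the most abundant, varied together between libraries. Each is the RefSeq window of 300 bases on GRCm38.p6, from 250 bases before the start to 50 after it, printed 5′ to 3′ on the strand of the gene. The windows are chr2:157559828-157560127 on the plus strand for Nnat, chr7:6730370-6730669 on the minus strand for Peg3 and chr12:109540746-109541045 on the plus strand for Meg3. Capitals mark TGCCGC on either strand, the core that the imprint-keeping protein ZFP57 binds when methylated, and TGACGTCA, the cAMP response element, which reads the same on both strands.
Nnat: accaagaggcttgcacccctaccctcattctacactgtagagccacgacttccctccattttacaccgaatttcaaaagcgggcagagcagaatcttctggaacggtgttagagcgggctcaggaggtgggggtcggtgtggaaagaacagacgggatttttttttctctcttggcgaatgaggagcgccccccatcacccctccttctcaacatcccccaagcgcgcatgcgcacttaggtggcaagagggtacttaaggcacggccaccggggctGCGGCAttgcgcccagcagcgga
Peg3: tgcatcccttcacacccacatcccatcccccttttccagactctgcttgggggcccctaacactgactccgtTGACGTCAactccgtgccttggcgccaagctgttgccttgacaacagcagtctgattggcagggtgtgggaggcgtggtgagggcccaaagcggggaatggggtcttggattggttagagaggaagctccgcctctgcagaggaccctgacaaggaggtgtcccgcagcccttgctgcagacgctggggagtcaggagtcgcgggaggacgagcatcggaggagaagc
Meg3: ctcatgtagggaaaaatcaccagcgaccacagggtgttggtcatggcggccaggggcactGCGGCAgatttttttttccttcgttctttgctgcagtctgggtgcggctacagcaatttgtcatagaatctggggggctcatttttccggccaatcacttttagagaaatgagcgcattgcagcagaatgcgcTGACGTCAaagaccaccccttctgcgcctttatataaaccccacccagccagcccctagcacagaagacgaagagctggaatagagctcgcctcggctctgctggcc
TGCCGC stood once in the Nnat and once in the Meg3 window, each time as its reverse complement GCGGCA. It was found in 11.6% of 32851 promoter windows of this length. TGACGTCA stood once in the Peg3 and once in the Meg3 window, and in 1.79% of all windows. Among the 15 windows of the 8 listed genes that matched by symbol, 4 held TGCCGC and 2 held TGACGTCA, and Cdkn1c and H19 had no entry. TGACGTCA was searched for after these windows had been seen, and a match describes letters, not a site in use. The Nnat window held 17 CG pairs and those of Peg3 and Meg3 held 13 each, where the median window held 7.

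A value below is a normalized read count, the reads of a gene divided by the size factor of its library, and values follow the order of replicates 1, 2 and 3. One read was worth between 0.879 and 1.23, and the libraries held 22071895 to 26806787 reads. Sec16b was at 1655, 773 and 1786 in the wild types and 553, 433 and 750 in the knockouts, a log2 fold change (knockout minus wild type, of log2(value + 1)) of −1.22 (SE 0.35). Beta cell markers were all present, 11 of 11, with 11.5% to 15.1% of wild type and 9.39% to 14.9% of knockout reads, and 1 had a higher and 10 a lower knockout mean. Acinar markers, which belong to exocrine tissue, took 1.06% to 5.15% and 0.689% to 15.3%, unequal amounts within each genotype, and 18 of 18 had a higher knockout mean. No value of the table was at 0.

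None of the 9 imprinted genes passed limma's test with Benjamini-Hochberg adjustment over all tested genes at 0.05, and neither did any other gene (0%). An unadjusted p under 0.05 was found for 494 genes, 3.08% of all, and for 1 of the 9, Nnat. EdgeR's quasi-likelihood test called 0 genes (509 at an unadjusted p under 0.05), and DESeq2 called 13, of which 0 were among the 9. The log2 fold change was above 0 for 6 of the 9 and for 49.4% of all genes, with medians of 0.11 and −0.0030. The genotypes overlapped for each of the 9, while 9.08% of all genes had no overlap. Leaving out 1 library moved the count above 0 to between 5 and 8. Of 51 single genes refitted without each library in turn, 37 had a log2 fold change that moved by over 1.5 times, all 9 imprinted genes among them. Fewer cells of a type and less RNA per cell cannot be told apart in bulk RNA.

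**Figure D1:**
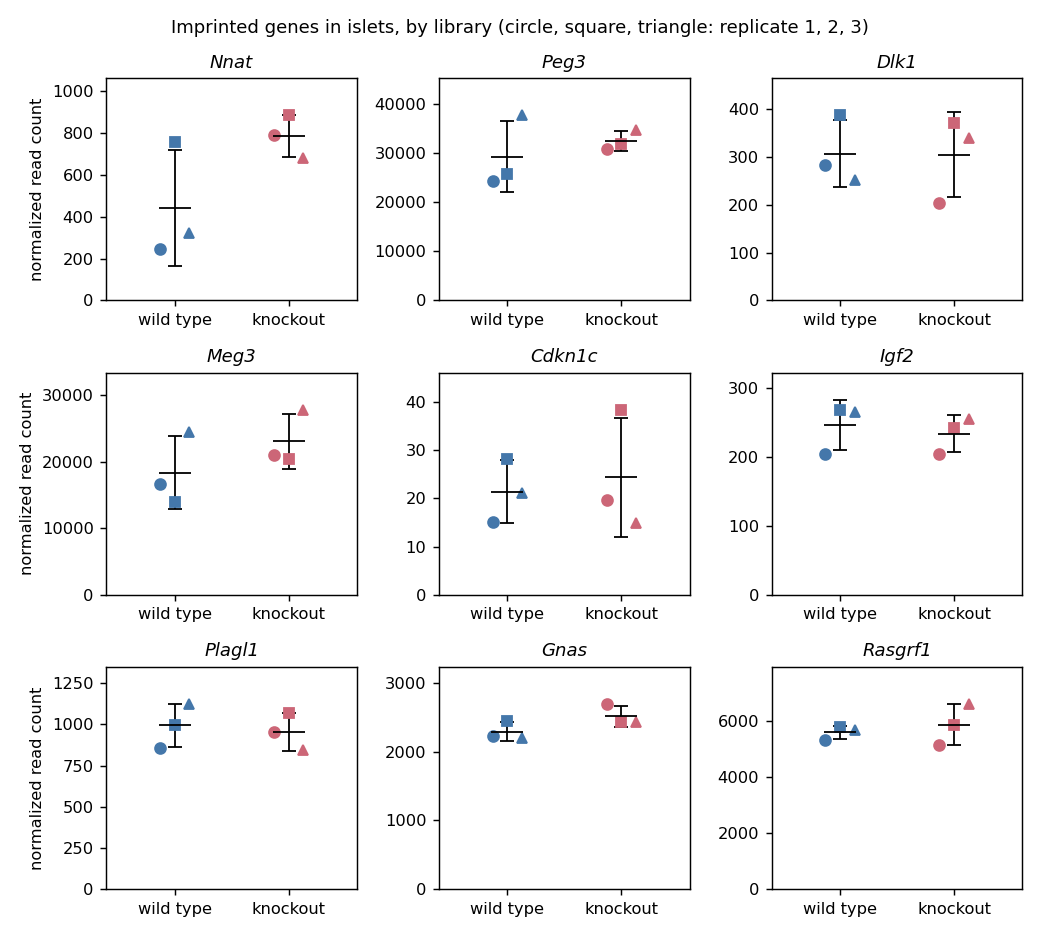
Normalized read count (y axis, from 0, with its own scale in each panel) of the 9 imprinted genes in 3 wild type (blue) and 3 knockout (red) libraries; the horizontal line is the mean and the error bar 1 SD (n = 3). The genotypes overlap in all 9 panels, and for Nnat wild type replicate 2, at 756, lies above knockout replicate 3, at 683.

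**Figure D2:**
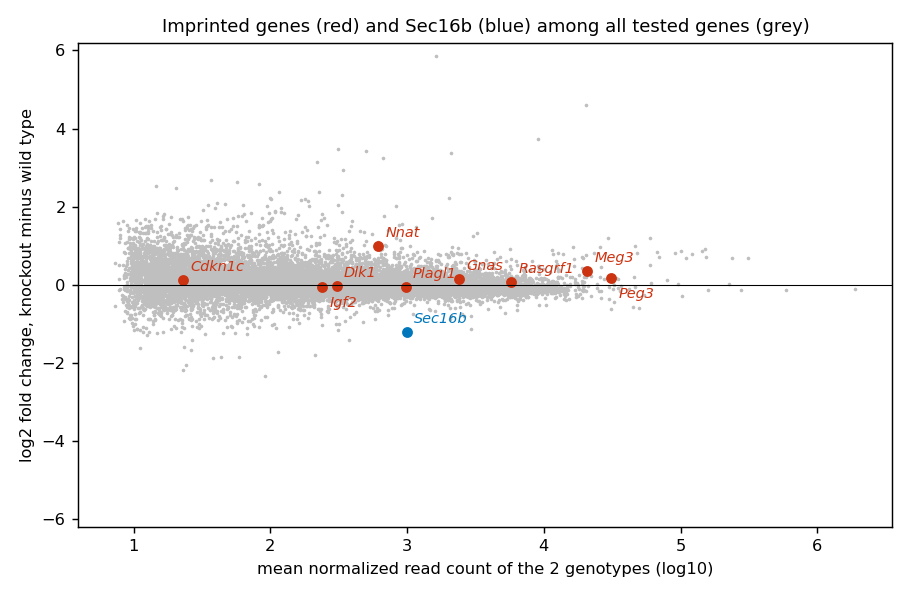
Log2 fold change (y axis, knockout minus wild type) against mean level (x axis, log scale) for 16042 tested genes (grey), with the 9 imprinted genes and Sec16b marked. Nnat stands at 1.0, and the other 8 imprinted genes lie between −0.07 and 0.36.

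Nnat encodes neuronatin, a small ER membrane protein that aids signal peptidase in processing preproinsulin. It was at 244, 756 and 323 in the wild types. The knockouts gave 793, 884 and 683. All 3 knockouts lay above wild type replicates 1 and 3, but wild type replicate 2 lay above knockout replicate 3. Means were 441 ± 276 (SD, n = 3) and 787 ± 101 (SD, n = 3). The log2 fold change was 1.0 (SE 0.39, 95% interval 0.06 to 1.94), with a limma adjusted p of 0.993 and an unadjusted p of 0.0398. A two-sided exact permutation test over the 6 libraries gave p = 0.2, and 3 against 3 cannot go below 0.1. Without wild type replicate 2 the log2 fold change was 1.48, and without wild type replicate 1 it was 0.66. Nnat varied more within a genotype than 94.5% of the 4760 genes within 2-fold of its mean level.

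Markers of other cells moved with Nnat. Their mean log2 level correlated with log2 Nnat at r = 0.87 for 10 endothelial markers, 0.76 for 9 duct markers and 0.73 for 9 alpha cell markers over the 6 libraries, and at 0.64 for 7 delta and PP cell markers. For 6 tested Schwann cell and neuron markers it was −0.72. Endothelial markers had a higher knockout mean for 9 of 10 genes, with 0.0439% to 0.0571% of wild type and 0.0527% to 0.0554% of knockout reads. For duct markers this was 6 of 9, with 0.131% to 0.183% and 0.138% to 0.168%. For alpha cell markers it was 8 of 9, with 1.03% to 1.94% and 1.42% to 3.14%. For delta and PP cell markers it was 6 of 7, with 0.176% to 0.201% and 0.169% to 0.290%. Of the Schwann cell and neuron markers all 6 tested had a lower knockout mean, with 0.00408% to 0.00645% and 0.00272% to 0.00447%. Mean log2 levels of endothelial markers were 9.28, 9.50 and 9.25 in wild types and 9.81, 9.63 and 9.55 in knockouts, without overlap. Those of delta and PP cell markers were 10.08, 10.07 and 9.75 against 10.19, 10.70 and 10.23, also without overlap. The levels of the duct, alpha cell, and Schwann cell and neuron markers overlapped. The part of all these cell types in the Nnat difference was not tested. Of 11500 genes with a mean of at least 100, those most like Nnat over the 6 libraries were Pon3 (r = 0.984) and Ramp1 (r = 0.976).

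Nnat lies in an intron of Blcap, an apoptosis-related gene, and reads of overlapping genes may be shared. Blcap was at 1462, 1761 and 1591 in the wild types, against 1816, 1503 and 1570 in the knockouts. Its log2 fold change was 0.02 (SE 0.11, 95% interval −0.25 to 0.29). The ratio of Nnat to Blcap was 0.167, 0.429 and 0.203 in the wild types and 0.436, 0.589 and 0.435 in the knockouts. Signal peptidase, the enzyme that neuronatin aids, had its log2 fold changes below 0 for 4 of 5 subunits. Spcs3 had −0.19 (SE 0.10), Spcs2 −0.18 (SE 0.10) and Spcs1 −0.14 (SE 0.09). The catalytic subunits Sec11a and Sec11c had −0.07 (SE 0.11) and 0.03 (SE 0.16). Of 11 tested genes of signal peptidase and protein targeting, 2 were above 0 and 9 below, with a median of −0.10, and 0 passed the test. Spcs2 and Spcs3 were lower in every knockout, as were 5.22% of all genes. For Spcs2 the nearest values were almost equal, 7025 in knockout replicate 3 and 7040 in wild type replicate 1.

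Peg3 encodes a zinc finger transcription factor. The wild types gave 24454, 25835 and 37754. In the knockouts it was at 30805, 31846 and 34836. Wild type replicate 3 was the highest of the 6, and all knockouts lay within the wild type range. Means were 29348 ± 7313 (SD, n = 3) and 32496 ± 2093 (SD, n = 3), with a log2 fold change of 0.17 (SE 0.20, 95% interval −0.31 to 0.66). Leaving out wild type replicate 3 gave 0.37, and leaving out wild type replicate 1 gave 0.055. Peg3 was most like Cramp1 (r = 0.994) and 4933434E20Rik (r = 0.991).

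The imprinted neighbours of Peg3 did not move alike. Zim1, a maternally expressed zinc finger gene, had r = 0.947 with Peg3 over the 6 libraries. It was at 564, 660 and 875 in the wild types, with 724, 841 and 876 in the knockouts, a log2 fold change of 0.24 (SE 0.18). Usp29, a paternally expressed ubiquitin protease gene that shares the promoter region of Peg3 and is read the other way, had r = −0.0347. It was at 560, 605 and 660 in the wild types, with 550, 508 and 477 in the knockouts. Every knockout lay below every wild type, as for 5.22% of all genes, the nearest being 550 against 560. For Usp29 the log2 fold change was −0.25 (SE 0.12, limma adjusted p = 0.993), and the exact permutation p was 0.1. The ratio of Peg3 to Usp29 was 43.6, 42.7 and 57.2 in the wild types and 56, 62.7 and 73 in the knockouts, with 1 wild type above 1 knockout.

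Meg3 is a long noncoding RNA whose lower level has been linked to type 2 diabetes in human islets. The wild types were at 16631, 13888 and 24465. The knockouts were at 20956, 20465 and 27847. Replicate 3 was the highest in both genotypes, and wild type replicate 3 lay above knockout replicates 1 and 2. Means were 18328 ± 5489 (SD, n = 3) and 23089 ± 4128 (SD, n = 3), with a log2 fold change of 0.36 (SE 0.24, 95% interval −0.21 to 0.93, limma adjusted p = 0.993). It was 0.59 without wild type replicate 3 and 0.18 without wild type replicate 2. Meg3 and Peg3 had r = 0.892 and rho = 0.829 over the 6 libraries. Meg3 was most like Eno3 (r = 0.994) and Carf (r = 0.989).

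Rian and Mirg lie downstream of Meg3 and are maternally expressed noncoding RNAs that host small nucleolar RNAs and microRNAs. Rian ordered the 6 libraries as Meg3 did, with r = 0.981. It was at 11638, 9938 and 14089 in the wild types, with 13297, 12180 and 15237 in the knockouts, a log2 fold change of 0.20 (SE 0.16). Mirg was at 731, 539 and 1086 in the wild types, with 551, 597 and 1297 in the knockouts, a log2 fold change of −0.0019 (SE 0.38) whose sign changed with the scaling. The ratio of Meg3 to Mirg was 22.8, 25.8 and 22.5 in the wild types and 38, 34.3 and 21.5 in the knockouts, so knockout replicates 1 and 2 stood above the other 4 libraries. The same 2 libraries had the lowest beta cell marker shares, 9.39% and 10.3% of reads, and the highest acinar marker shares, 15.3% and 7.03%. The Mirg log2 fold change was 0.14 with the acinar level as a covariate. The part of cell makeup in this ratio was not tested. Rows for the microRNA precursors Mir341, Mir1188, Mir453 and Mir541 of this locus, named after their values were seen, ran from 2.45 to 28.1.

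Dlk1 encodes a membrane protein related to the Notch ligands. The wild types gave 283, 387 and 252, the knockouts 204, 371 and 340. Knockouts held both the lowest and the second highest value. Means were 307 ± 70.8 (SD, n = 3) and 305 ± 89 (SD, n = 3). The log2 fold change was −0.03 (SE 0.28, 95% interval −0.69 to 0.62), with −0.20 to 0.23 when 1 library was left out. Dlk1 was most like Tomm40l (r = 0.988) and Yaf2 (r = 0.983), and had r = −0.282 with Meg3.

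Rtl1, a paternally expressed gene derived from a retrotransposon, lies at the same locus. It was at 33.1, 27.1 and 43.1 in the wild types, with 50.3, 57.1 and 65.8 in the knockouts. Each knockout lay above every wild type, as for 3.85% of all genes. For Rtl1 the log2 fold change was 0.75 (SE 0.29, 95% interval 0.06 to 1.43), with a limma adjusted p of 0.993 and an exact permutation p of 0.1. A maternal antisense RNA runs through Rtl1, and without a known strand setting the reads of both cannot be told apart. The deiodinase gene Dio3 ran from 2.64 to 66.3 over the 6 libraries, with 1.38 (SE 1.07), and Begain, a gene known from synapses, had −0.74 (SE 0.57). Dio3 was at 0.60 without wild type replicate 3 and 2.47 without wild type replicate 2, and Begain at −0.21 without wild type replicate 1. Of 14 tested Notch pathway genes, 11 were above 0 and 3 below, with a median of 0.11, and 0 passed the test. The receptor gene Notch3 was at 172, 197 and 164 in the wild types, with 277, 229 and 258 in the knockouts, a log2 fold change of 0.52 (SE 0.16). The ligand gene Jag2 had −0.29 (SE 0.09) and the ligand gene Dll1 0.33 (SE 0.19). Notch3 and Jag2 had no overlap, as for 9.08% of all genes.

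**Figure D3:**
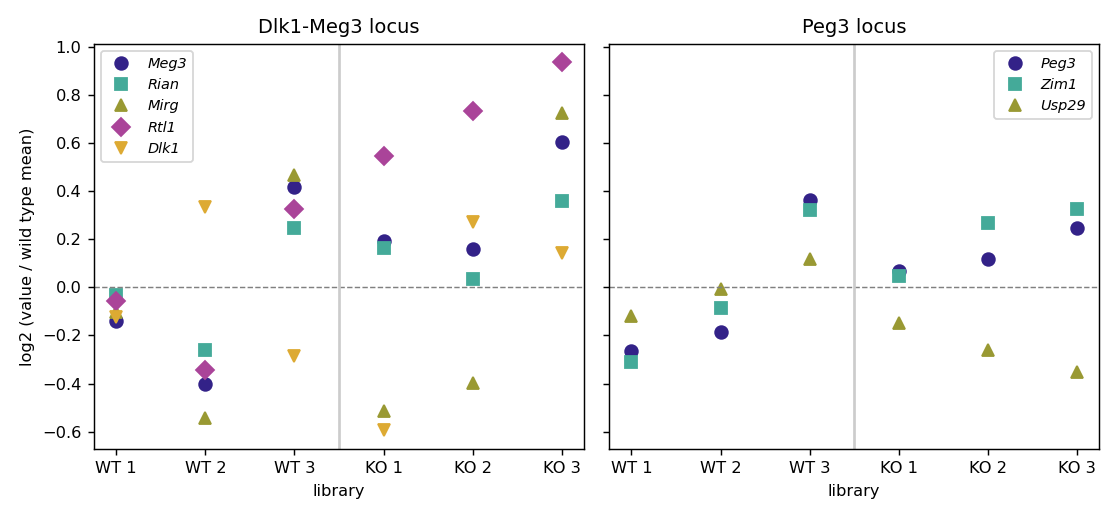
Log2 of each value over the wild type mean (y axis) in the 6 libraries (x axis) for genes of the Dlk1-Meg3 locus and of the Peg3 locus. Meg3 and Rian keep one order over the 6 libraries, Mirg parts from them in knockout replicates 1 and 2, and Usp29 lies below every wild type value in the 3 knockouts, where Peg3 and Zim1 do not.

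Cdkn1c encodes p57, an inhibitor of cyclin-dependent kinases that restrains cell division. In the wild types Cdkn1c was at 15, 28.1 and 21.1, and the knockouts gave 19.6, 38.4 and 15. Knockout replicate 2 was the highest, and the 2 lowest, one of each genotype, were 15 reads each. The log2 fold change was 0.11 (SE 0.45), and at so few reads the 95% interval ran from −0.96 to 1.18. Its level correlated with alpha cell markers at r = 0.83 and with stellate and fibroblast markers at r = 0.75, and by ranks at rho = 0.66 for each. These and the r values below rest on 15 to 41 reads in a library. The stellate and fibroblast markers were 6 of 11 above 0, with 0.0111% to 0.0302% of wild type and 0.0127% to 0.0170% of knockout reads. The part of both cell groups was not tested. Cdkn1c was most like Appl1 (r = 0.994) and Clmn (r = 0.987).

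Kcnq1ot1 had the smallest p of the 17 tested neighbours. It is a paternally expressed noncoding RNA that silences nearby genes, Cdkn1c among them, on its own chromosome. The wild types gave 270, 223 and 263. The knockouts gave 427, 421 and 348, each above every wild type, as for 3.85% of all genes. Means were 252 ± 25.4 (SD, n = 3) and 398 ± 44 (SD, n = 3). For Kcnq1ot1 the log2 fold change was 0.66 (SE 0.15, 95% interval 0.30 to 1.02), with a limma adjusted p of 0.993, an unadjusted p of 0.00352 and an exact permutation p of 0.1. DESeq2 gave an adjusted p of 0.153, the lowest over 18 alternatives, and the log2 fold change ran from 0.57 to 0.75 with 1 library left out. Kcnq1ot1 had r = 0.144 with Cdkn1c over the 6 libraries. It correlated with endothelial markers at r = 0.76 and with delta and PP cell markers at r = 0.70 (n = 6). Shares and levels of both are given beside Nnat. For lymphocyte markers r was 0.68 and for beta cell markers −0.60, with shares given beside Igf2 and Sec16b. The part of these cell types was not tested. Kcnq1ot1, the endothelial level and the delta and PP cell level each had no overlap between the genotypes, which these r pool. In the wild types replicate 2 had the lowest Kcnq1ot1 value and the highest endothelial level. In the knockouts both fell from replicate 1 to replicate 3.

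Kcnq1, a potassium channel gene, is read antisense to Kcnq1ot1, so their reads may be shared. It was at 108, 117 and 84.4 in the wild types, with 281, 98.4 and 68.8 in the knockouts, high in knockout replicate 1. The log2 fold change was 0.28 (SE 0.51), and −0.31 without that library. Other genes of the locus were below 0: Tssc4 had −0.23 (SE 0.18), the tetraspanin gene Cd81 −0.29 (SE 0.16), the histone chaperone gene Nap1l4 −0.13 (SE 0.09) and the decoy receptor gene Tnfrsf23 −0.22 (SE 0.31). Slc22a18, a transporter gene, had −0.89 (SE 0.72), and leaving out knockout replicate 3 gave −0.29, leaving out knockout replicate 2 −1.29. Phlda2 was under the filter. Of 15 tested cyclin-dependent kinases, their inhibitors and G1 cyclins, 5 were above 0 and 10 below, with a median of −0.11, and 0 passed the test. The kinase gene Cdk4 had −0.20 (SE 0.09) and the cyclin gene Ccne2 −0.29 (SE 0.17). Both were lower in every knockout, as were 5.22% of all genes. The inhibitor gene Cdkn2c had −0.34 (SE 0.26).

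Igf2 encodes a fetal growth factor. In the wild types Igf2 was at 204, 268 and 265, and the knockouts gave 204, 242 and 255. Replicate 1 was the lowest in both genotypes. Means were 246 ± 35.8 (SD, n = 3) and 234 ± 26.7 (SD, n = 3), with a log2 fold change of −0.07 (SE 0.18, 95% interval −0.49 to 0.35). Igf2 was low where lymphocyte markers were high (r = −0.91, n = 6). Of these 10 markers 7 were in the table, all 7 with a higher knockout mean, at 0.00108% to 0.0970% of wild type and 0.0325% to 0.531% of knockout reads, and their part was not tested. Igf2 also had r = −0.74 with acinar and r = 0.73 with beta cell markers, whose shares are given beside Sec16b. The Igf2 log2 fold change was −0.0083 with the acinar level as a covariate, and the part of beta cells was not tested. Igf2 was most like Cfap126 (r = 0.996) and Zfp24 (r = 0.994). Its neighbour Ins2, an insulin gene, had a log2 fold change of −0.11 (SE 1.74, 95% interval −4.24 to 4.02). From the spread of Ins2 alone, without the trend, the SE was 0.20. The antisense Igf2os was under the filter.

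Of 13 tested genes of the IGF axis, 10 were above 0 and 3 below, with a median of 0.18, and 0 passed the test. The binding protein gene Igfbp3 was at 2026, 2931 and 2005 in the wild types, with 5186, 2490 and 4515 in the knockouts, a log2 fold change of 0.76 (SE 0.29). Knockout replicate 2 lay within the wild type range. Igfbp4, another binding protein gene, had 1.09 (SE 0.58), and the insulin receptor gene Insr 0.18 (SE 0.11). Without knockout replicate 3 Igfbp4 was at 1.71, and without wild type replicate 3 at 0.73. The receptor genes Igf1r and Igf2r had 0.04 (SE 0.26) and −0.14 (SE 0.11).

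Plagl1 encodes a zinc finger protein whose excess causes transient neonatal diabetes in humans. In the wild types Plagl1 was at 858, 997 and 1125, and the knockouts gave 951, 1069 and 842. A knockout was the lowest and a wild type the highest, 1.34-fold apart. Means were 993 ± 133 (SD, n = 3) and 954 ± 113 (SD, n = 3), with a log2 fold change of −0.06 (SE 0.14, 95% interval −0.39 to 0.28). Plagl1 was most like Rsph3b (r = 0.997) and Phlpp2 (r = 0.995), and its neighbour Phactr2 had 0.02 (SE 0.16).

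Gnas encodes the stimulatory G protein subunit that links glucagon and incretin receptors to cAMP. The wild types gave 2234, 2449 and 2194. The knockouts gave 2697, 2426 and 2438. Knockout replicate 1 was the highest, and wild type replicate 2 lay above knockout replicates 2 and 3. Means were 2292 ± 137 (SD, n = 3) and 2520 ± 153 (SD, n = 3), with a log2 fold change of 0.14 (SE 0.09, 95% interval −0.08 to 0.35, limma adjusted p = 0.993). Within a genotype Gnas varied more than 17.5% of genes of like level. It correlated with endothelial (r = 0.97) and duct (r = 0.95) markers over the 6 libraries, whose shares are given beside Nnat and whose part was not tested. Gnas was most like Lrrc32 (r = 0.996) and Oas1b (r = 0.996). Of 28 tested genes of cAMP signalling, 10 were above 0 and 18 below, with a median of −0.05, and 0 passed the test. The cAMP sensor gene Rapgef4 had −0.29 (SE 0.14), the inhibitory subunit gene Gnai1 0.78 (SE 0.38) and the glucagon receptor gene Gcgr 0.37 (SE 0.18). Gnai1 was at 0.42 without wild type replicate 1 and 1.18 without wild type replicate 2, and Gcgr at 0.18 without knockout replicate 3. Gcgr, higher, and the transcription factor gene Creb1, at −0.13 (SE 0.09), had no overlap, as for 9.08% of all genes. For Gcgr the nearest values were almost equal, 476.8 in knockout replicate 2 and 476.6 in wild type replicate 3.

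Rasgrf1 encodes a calcium-sensitive activator of Ras. In the wild types Rasgrf1 was at 5341, 5784 and 5679, and the knockouts gave 5140, 5876 and 6619. Knockouts held the lowest and the 2 highest values. Means were 5601 ± 231 (SD, n = 3) and 5878 ± 740 (SD, n = 3), with a log2 fold change of 0.06 (SE 0.11, 95% interval −0.21 to 0.33). It was −0.027 without knockout replicate 3. Rasgrf1 was low where acinar (r = −0.81), Schwann cell and neuron (r = −0.81) and macrophage markers (r = −0.79) were high (n = 6). The macrophage markers had a higher knockout mean for 5 of 9 genes, with 0.0165% to 0.0241% of wild type and 0.0129% to 0.0293% of knockout reads. Beta cell markers had r = 0.70 with Rasgrf1. The part of the beta cells, Schwann cells, neurons and macrophages was not tested. With the acinar level as a covariate the Rasgrf1 log2 fold change was 0.12. Rasgrf1 was most like Pitpnm2 (r = 0.996) and Gm29216 (r = 0.993). Of 17 tested genes of Ras and ERK signalling, 5 were above 0 and 12 below, with a median of −0.05, and 0 passed the test. Hras, which encodes a Ras protein, had −0.14 (SE 0.09) and was lower in every knockout, as were 5.22% of all genes.

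**Figure D4:**
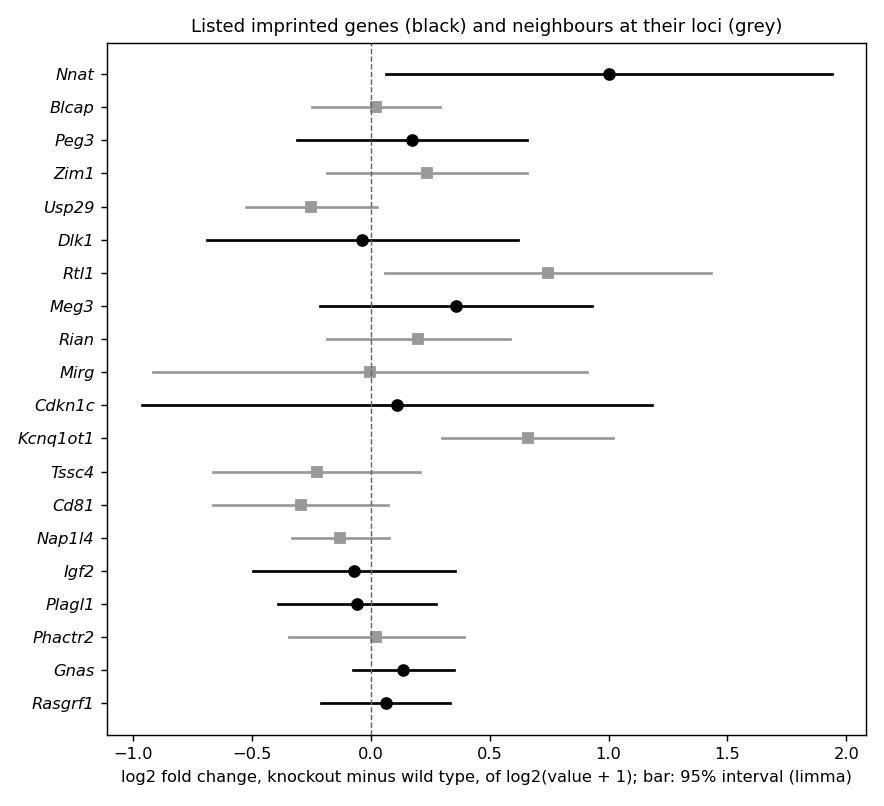
Log2 fold change (x axis, knockout minus wild type, of log2(value + 1)) with its 95% interval from limma for the 9 imprinted genes and 11 of their 17 tested neighbours. The neighbours Dio3, Begain, Kcnq1, Slc22a18, Tnfrsf23 and Ins2 are not drawn, and their intervals all include 0. The intervals of Nnat, Rtl1 and Kcnq1ot1 lie above 0, and 0 of the 9 imprinted genes passed the adjusted test.

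Levels were compared between genes per kilobase of exon, with lengths from GENCODE M21 and wild type before knockout (mean ± SD, n = 3). Peg3 was highest, at 2203 ± 549 and 2439 ± 157. Meg3 followed at 1013 ± 303 and 1276 ± 228. Rasgrf1 came next, at 506 ± 20.9 and 531 ± 66.8. These 3 did not overlap one another. Nnat, at 241 ± 151 and 430 ± 55.2, overlapped both Rasgrf1 and Gnas, the latter at 205 ± 12.2 and 225 ± 13.7. Nnat was above Gnas in 4 of 6 libraries. Plagl1 was at 127 ± 17 and 122 ± 14.5. Dlk1, at 54.3 ± 12.5 and 53.9 ± 15.7, and Igf2, at 42.9 ± 6.26 and 40.8 ± 4.66, overlapped. Cdkn1c was lowest, at 10.5 ± 3.20 and 11.9 ± 6.09. Over 15762 genes with a length, Peg3 lay above 98.4% and Cdkn1c above 13.3%. By the longest transcript in place of all exons, Nnat was above Gnas in 2 of 6 libraries, and Meg3 and Rasgrf1 overlapped.

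Among imprinted genes outside these loci, 35 were tested, 22 above 0 and 13 below, with a median log2 fold change of 0.07, and 0 passed the test. Mest, a paternally expressed hydrolase gene, was at 151, 107 and 143 in the wild types, with 177, 221 and 159 in the knockouts, without overlap, a log2 fold change of 0.47 (SE 0.22). Chrac1, lower in every knockout, had −0.16 (SE 0.11). Of 61 tested genes listed as imprinted or at the loci, 3 were higher in every knockout (Rtl1, Kcnq1ot1, Mest) and 2 lower (Usp29, Chrac1). Over all tested genes these shares were 3.85% and 5.22%. Grb10 encodes an adaptor that restrains insulin receptor signalling and was at 2172, 1604 and 1957 in the wild types, with 1560, 1677 and 1397 in the knockouts, a log2 fold change of −0.30 (SE 0.14). The phosphoinositide phosphatase gene Inpp5f had 0.31 (SE 0.15). Of the 17 tested neighbours of the 9 genes, 8 were above 0 and 9 below, and 0 passed. Of 12 tested genes that keep or erase imprints, 7 were above 0 and 5 below, and 0 passed. Of these 12 only the insulator protein gene Ctcf had no overlap, at −0.13 (SE 0.09). It was lower in every knockout, as were 5.22% of all genes. Its nearest values were almost equal, 2056 in knockout replicate 1 and 2059 in wild type replicate 2. The demethylase genes Tet3 and Tet2 had 0.19 (SE 0.11) and 0.25 (SE 0.15).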

How the data were processed

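Islet RNA was sequenced in 6 libraries of 2 genotypes, grouped by the sample labels. The submitters' processing notes name HISAT2. No version, counter, strand setting, genome build or annotation is given in the sources used here. The deposited signal values are reads over a library size factor, as the values show: 100% were whole multiples of 1 read within 0.01, and DESeq2 computes the same factors.

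Genes reaching 10 in 3 libraries were tested as log2(value + 1), which understates changes of low genes. Limma 3.58.1 (R 4.3.3) compared the genotypes, two-sided, with a trend of variance on level, over 16042 genes. EdgeR 4.0.16 and DESeq2 1.42.0 on the recovered reads were alternatives, beside pseudocounts of 0.1 and 10, other filters, other scalings, array weights, no trend, a replicate block, an acinar covariate and each library left out. The fits were tested on simulated data. Replicate libraries differed by more than sampling noise, with chi-square per degree of freedom from 57.05 to 326.62.

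The genes and lists were chosen with earlier results of these data known. Named genes are the 9, Sec16b, tested neighbours, the 3 smallest p of each list (some are not reported here), and the 2 genes of highest Pearson r to each of the 9 (11 to 78 of 11500 genes exceeded 0.95). Creb1, Chrac1, Sec11a, Sec11c, Igf1r, Igf2r, Phlda2, Igf2os and microRNA rows were added after their values were seen. Correlations over 6 libraries pool the genotypes and are descriptions. Where marker lists are named for a gene, they are those of larger r, and the others are not reported here.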

Additional observations from a re-analysis of the deposited data

How the results depend on the processing

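Over 18 alternatives, 0 of the 9 imprinted genes were called where tested, Cdkn1c being under the filter of 50 and without an adjusted p in DESeq2, and 40 of 51 single genes kept the sign of their log2 fold change. DESeq2 called 13 genes of the whole table where limma called 0. With array weights the log2 fold change was 0.093 for Dlk1, −0.060 for Blcap and −0.011 for Phactr2. With the acinar level as a covariate it was 0.079 for Dlk1 and 0.14 for Mirg. Mirg was at 0.0021 with TMM scaling, 0.0067 with scaling without acinar genes, 0.055 with edgeR and 0.060 with DESeq2. With 1 library left out, log2 fold changes ran from −0.20 to 0.23 for Dlk1, −0.26 to 0.39 for Cdkn1c, −0.20 to 0.026 for Igf2, −0.16 to 0.038 for Plagl1 and −0.027 to 0.16 for Rasgrf1. Among neighbours they ran from −0.059 to 0.091 for Blcap, −0.39 to 0.26 for Mirg, −0.31 to 0.70 for Kcnq1, −0.38 to 0.097 for Tnfrsf23, −0.25 to 0.032 for Ins2 and −0.10 to 0.086 for Phactr2. The cause was not tested. The median of the 9 ran from 0.03 to 0.20 and Nnat from 0.66 to 1.48. Nnat was above Gnas per length in 2 libraries by the longest transcript, against 4.

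Libraries share only a replicate number: deviations from the genotype mean correlated at 0.43, 0.0037 and 0.37 for the same numbers, and not every library correlated best with its own. With the replicate block limma called 0 genes, and 864 had an unadjusted p under 0.05. Of the 9, Nnat and Meg3 were among the 864. The limma adjusted p of both was 0.837, with unadjusted p of 0.0154 for Nnat and 0.0317 for Meg3, against 0.179 for Meg3 without the block.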
